A study of Apis mellifera with 12 samples.

Results

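Antennae of foragers, the honey bee (Apis mellifera) workers that collect food outside the hive, were compared with antennae of newly emerged workers, which have just left the brood cell. The comparison uses 6 of the 12 antennal RNA libraries of the series, 3 of each group, chosen by the group names in the sample titles. The other 6 libraries, 3 from nurses and 3 from defenders, entered the statistical model and are shown where they place the forager values. No genotype, strain or treatment distinguishes the groups in the labels. The sources used here give no ages, no colonies and no number of bees per library, so the task of a worker and its age cannot be told apart. The question, taken from the title of the series, is how antennal transcripts go with the division of labor.

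A worker emerges with a soft cuticle that is still being built and tanned, and her first tasks are inside the nest. Foraging is the last task in the usual sequence of worker life. The antenna is her main olfactory organ. Odorants enter pores of hair-like sensilla, are carried through the lymph by odorant binding proteins and chemosensory proteins, and meet odorant receptors on the neurons, each of which works with the co-receptor Or2 (the bee ortholog of Orco). Cuticle proteins bind chitin to form the wall of the antenna, and tyrosine hydroxylase and yellow proteins take part in its tanning.

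Library totals were 101317842, 66708813 and 92415714 counts for newly emerged workers 1 to 3 and 100255711, 99999205 and 78207779 for foragers 1 to 3. In a principal component analysis of the 6 libraries, the first component held 78.5% of the variance and separated the groups, with newly emerged libraries from -52.7 to -46.2 and forager libraries from 46.9 to 51.6. Forager library 2 stood apart on the second component (9.09% of the variance), at -31.7 against 14.6 and 17.4 for forager libraries 1 and 3. Obp1, an antennal pheromone carrier, was at 17375, 23805 and 17086 CPM in the 3 forager libraries, and Or2 at 198, 246 and 152 CPM, as the antennal label has it. CPM is a gene's count divided by the TMM-scaled size of its library, on the usual scale. It is not corrected for gene length, so levels are compared between libraries and not between genes.

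Of 11271 genes tested, 5403 differed between foragers and newly emerged workers at an adjusted p under 0.05 (edgeR quasi-likelihood test, Benjamini-Hochberg adjustment), which is 47.9% of the genes tested. In foragers 2655 genes were higher (23.6%) and 2748 lower (24.4%). Each p-value is set against the spread of libraries within their groups, estimated over all 12 libraries of the 4 groups. That spread may be technical, because no label says that the libraries of a group came from separate bees or colonies. The libraries of the groups did not overlap in 6341 genes (56.3%), among them 5202 of the 5403. At least 2-fold differences were found for 1805 genes (16.0%), 967 higher (8.58%) and 838 lower (7.44%). At least 16-fold differences were found for 47 genes higher and 56 lower in foragers. Without forager library 2 the count was 2533 higher and 2697 lower. With the 6 compared libraries alone, 4718 of 11163 genes tested passed, 2323 higher and 2395 lower. Upper-quartile scaling in place of TMM moved the median change over all genes by 0.146 (log2) and changed the split of the calls from 2655 higher and 2748 lower to 3708 higher and 1983 lower. Directions below are therefore relative to the TMM scale, and a gene whose call ended under the other scale is named where it occurs. The shares of all genes called higher and lower are the background for each count over a gene list, and a count near them is not a result about the list. Genes entered a list by symbol or synonym, while 10802 of the tested genes carry a LOC identifier in place of a symbol. A list can therefore hold only a part of its family.

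Transcripts of structural cuticle proteins made up the largest falls among genes with a symbol that belong to a list. Of 25 tested cuticle genes with a symbol, 17 fell and 4 rose in foragers, beside 24.4% and 23.6% of all genes. The list's median log2 fold change was -1.93, against 0.01 over all genes tested. Leaving out any of the 6 libraries gave 16 to 17 falls and 3 to 4 rises. In whole antennae fewer cells of a type and less RNA per cell cannot be told apart.

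CPR6, a cuticle protein with the Rebers-Riddiford chitin-binding domain, was at 165, 102 and 147 CPM in the 3 newly emerged libraries and at 0.658, 0.340 and 0.332 CPM in the 3 forager libraries (log2 difference -8.26 ± 0.41 SE, adjusted p = 4.82e-08). CPR19, of the same family, went from 254, 268 and 309 CPM to 0.728, 0.940 and 1.79 CPM (log2 difference -7.93 ± 0.47 SE, adjusted p = 1.35e-07). In both genes every forager library was at or under 1.79 CPM, while no newly emerged library was under 102 CPM. CPR27 fell from 45.1, 79.3 and 62.7 CPM to 5.03, 6.27 and 3.87 CPM (log2 difference -3.62 ± 0.26 SE, adjusted p = 6.35e-07).

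Apidermins are small hydrophobic cuticle proteins described in the honey bee. Apd-2 was at 3593, 3563 and 4503 CPM in newly emerged antennae and at 48.8, 95.1 and 53 CPM in foragers (log2 difference -5.89 ± 0.34 SE, adjusted p = 1.17e-07). Apd-1 was at 26.7, 31.5 and 62.3 CPM in newly emerged workers and at 0.150, 0 and 0.102 CPM in foragers, where forager library 2 held no count (log2 difference -8.90 ± 0.67 SE, adjusted p = 1.02e-06). Apd-3 fell by 5.17 and the separately listed apd-3 by 4.12 on the log2 scale. In the NCBI gene list for the honey bee these genes form a run with 3 genes that have no symbol, and all 7 genes of the run fell. Neighbouring copies of similar sequence may compete for the same reads, and the sources used here do not say how these were assigned.

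Cpap3 proteins carry 3 chitin-binding domains and are known in other insects from the rigid cuticle. Cpap3-c was at 119.6, 119.8 and 148 CPM in newly emerged workers and 11.3, 10.9 and 3.48 CPM in foragers (log2 difference -3.91 ± 0.42 SE, adjusted p = 1.65e-05), and Cpap3-b at 74.2, 58.9 and 78.4 CPM against 11.9, 12.3 and 8.48 CPM (log2 difference -2.69 ± 0.23 SE, adjusted p = 2.54e-06). Cpap3-d fell by 1.93 on the log2 scale. CPR14, at 2421, 2233 and 2557 CPM in newly emerged workers, was still at 516, 546 and 509.5 CPM in foragers (log2 difference -2.20 ± 0.18 SE, adjusted p = 1.89e-06). The groups did not overlap in any of these 4 genes, which also holds for 5202 of the 5403 genes called.

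The 4 cuticle genes that rose were CPR21, CPR3, CPR22 and CPR4. CPR22 was at 78.1, 58.1 and 95.4 CPM in newly emerged workers and 139.7, 137 and 117 CPM in foragers (log2 difference 0.76 ± 0.19 SE, adjusted p = 0.00527), and CPR3 rose by 0.78 on the log2 scale. CPR21 was low in both groups, at 0.0484, 0.0740 and 0.0643 CPM and 0.409, 0.540 and 0.703 CPM (log2 difference 3.14 ± 0.38 SE, adjusted p = 4.62e-05). CPF1, CPR2, CPR12 and CPR17 did not pass, with log2 fold changes from -0.28 to 0.58, and CPR13 and CPR18 had too few counts to be tested.

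**Figure D1:**
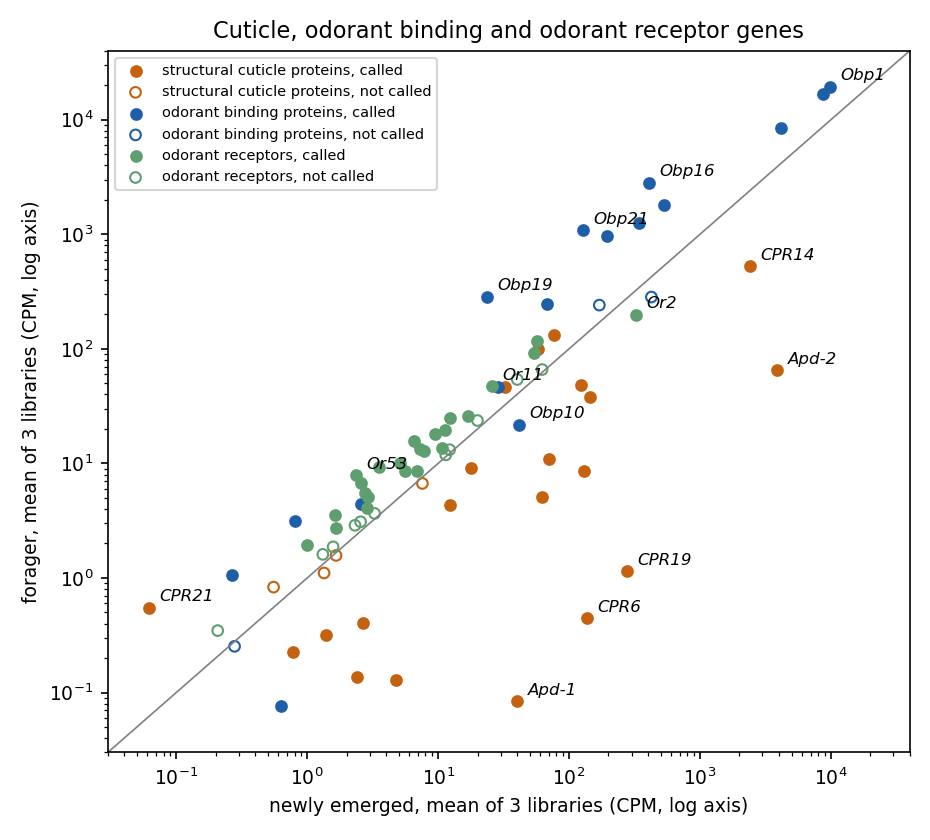
Mean level (CPM, both axes logarithmic) of tested cuticle protein, odorant binding protein and odorant receptor genes matched by symbol or synonym. Newly emerged (x) and forager (y) antennae are shown, means of 3 libraries each. Filled points passed the adjusted p of 0.05 and the line marks equal levels. Apd-1, CPR6 and CPR19 lie farthest under the line, most odorant binding protein genes lie above it, and odorant receptor genes lie close above it except Or2.

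The tanning genes did not move one way: of 5 tested, 3 rose and 2 fell, beside 23.6% and 24.4% of all genes. TyHyd encodes tyrosine hydroxylase, which makes the DOPA from which cuticle pigments and dopamine derive. It was at 2821, 4058 and 2940.2 CPM in newly emerged workers and 1105, 760.5 and 512 CPM in foragers (log2 difference -2.05 ± 0.29 SE, adjusted p = 1.46e-04). Y-f, Y-y and Y-e3, all genes of the yellow family, rose. Y-f was at 17, 18.3 and 16.5 CPM against 143, 85.3 and 115 CPM in foragers (log2 difference 2.72 ± 0.18 SE, adjusted p = 3.31e-07), and Y-y at 5.77, 5.65 and 7.39 CPM against 18.8, 19.2 and 20.4 CPM (log2 difference 1.63 ± 0.18 SE, adjusted p = 2.22e-05). Y-h fell by 0.73 on the log2 scale, and its adjusted p was 0.0523 without newly emerged library 1. FAR1, the tested gene of fatty acid and hydrocarbon synthesis, encodes a fatty acyl reductase and was at 71.3, 67 and 60.4 CPM against 34.9, 30.9 and 28.6 CPM in foragers (log2 difference -1.07 ± 0.12 SE, adjusted p = 1.98e-05).

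Most odorant binding protein genes were higher in foragers. Of 19 tested odorant binding protein genes, 14 were higher and 2 lower in foragers, beside 23.6% and 24.4% of all genes. The list's median log2 fold change was 1.03. Without each library in turn, 13 to 14 were higher and 1 to 3 lower.

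Obp1 and Obp2 are known as pheromone and odorant carriers of the worker antenna. Obp1 was at 9042, 9710.4 and 10976 CPM in newly emerged workers and rose in foragers (log2 difference 0.97 ± 0.13 SE, adjusted p = 1.18e-04). Obp2 went from 7515, 9659.9 and 9128 CPM to 15096, 20509 and 15028 CPM (log2 difference 0.94 ± 0.14 SE, adjusted p = 1.72e-04), and Obp6 from 3416, 4203 and 4829.5 CPM to 6655, 10656 and 8148 CPM (log2 difference 1.03 ± 0.17 SE, adjusted p = 5.33e-04). In all 3 genes each forager library was above each newly emerged library, and 5202 of the 5403 genes called had groups that did not overlap.

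Larger rises were in the C-minus group, odorant binding proteins that lack a pair of the conserved cysteines. Obp13 to Obp21 stand in a row of 8 genes in the NCBI gene list, of which 5 rose, 1 fell and 2 did not pass. Obp19 was at 21.5, 24.7 and 24.1 CPM in newly emerged workers and 244, 268 and 343 CPM in foragers (log2 difference 3.61 ± 0.26 SE, adjusted p = 6.99e-07). Obp21 went from 119, 114 and 152 CPM to 875, 1235 and 1149 CPM (log2 difference 3.08 ± 0.20 SE, adjusted p = 3.07e-07), and Obp16 from 399, 388 and 444 CPM to 2493, 2989 and 2992 CPM (log2 difference 2.78 ± 0.14 SE, adjusted p = 5.17e-08). Obp15 rose by 2.34 and Obp14, a transcript near 1 CPM in foragers, by 1.97 on the log2 scale.

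Obp17 and Obp18, between them in the row, had log2 fold changes of 0.50 (adjusted p = 0.117) and -0.59 (adjusted p = 0.0829). Obp13, at 0.446, 0.251 and 1.21 CPM in newly emerged workers and 0.0598, 0.170 and 0 CPM in foragers, had an adjusted p of 0.0451, which 4 of the 6 omissions of a library, upper-quartile scaling and DESeq2 took past 0.05. Among the other carriers, Obp11 rose by 1.86, Obp4 by 1.87 and Obp5 by 1.78 on the log2 scale. Obp10 was at 39, 36.8 and 48.9 CPM in newly emerged workers and 24.1, 19.6 and 21.7 CPM in foragers (log2 difference -0.93 ± 0.11 SE, adjusted p = 4.25e-05), the only fall besides Obp13.

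Chemosensory proteins are another family of small soluble carriers, and some of them have been tied to cuticle formation. CSP2 was at 75.4, 67.6 and 102 CPM in newly emerged workers and 12.7, 10.8 and 9.65 CPM in foragers (log2 difference -2.88 ± 0.17 SE, adjusted p = 1.35e-07), and CSP4 at 1093, 1118 and 1234 CPM against 271, 456 and 379 CPM (log2 difference -1.64 ± 0.17 SE, adjusted p = 1.58e-05). CSP1 was higher by 0.53 on the log2 scale at an adjusted p of 0.0335, a call that was lost in 4 of the 6 omissions of a library. CSP3, at 7877, 6944 and 8138 CPM in foragers, and CSP6 did not pass.

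Most odorant receptor genes that passed were higher in foragers by small steps. Of 35 tested receptors matched by symbol or synonym, 23 were higher in foragers and 1 lower, beside 23.6% and 24.4% of all genes. The list's median log2 fold change was 0.72. Omitting each library in turn left 20 to 23 higher, and upper-quartile scaling gave 25 higher and 0 lower. The receptors that rose did so by 0.31 to 1.75 on the log2 scale.

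Or11, which responds to the chief substance of queen mandibular pheromone, was at 23.7, 28.8 and 25.4 CPM in newly emerged workers and 45.8, 54 and 42.1 CPM in foragers (log2 difference 0.86 ± 0.10 SE, adjusted p = 3.83e-05). Or12, beside it in the NCBI gene list, went from 52.1, 58.1 and 59.1 CPM to 113, 129 and 109 CPM (log2 difference 1.05 ± 0.09 SE, adjusted p = 2.34e-06), and Or9 from 2.17, 2.62 and 2.92 CPM to 6.61, 7.29 and 6.5 CPM (log2 difference 1.40 ± 0.14 SE, adjusted p = 9.00e-06). Or53 made the largest rise, from 2.17, 2.65 and 2.29 CPM to 7.92, 10.2 and 5.66 CPM (log2 difference 1.75 ± 0.22 SE, adjusted p = 5.30e-05). In these 4 genes no forager library overlapped the newly emerged ones, as in 5202 of the 5403 genes called. Of the run Or9 to Or14, only Or13 did not pass, at a log2 fold change of 0.11 (adjusted p = 0.4).

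The co-receptor Or2 went the other way. It was at 323, 339.7 and 308 CPM in newly emerged workers and 198, 246 and 152 CPM in foragers (log2 difference -0.71 ± 0.25 SE, adjusted p = 0.0356). The groups did not overlap, but the adjusted p was 0.0576 to 0.123 in 5 of the 6 omissions of a library and 0.0746 under upper-quartile scaling. Gr10, the tested gustatory receptor gene with a symbol, was at 2.85, 2.97 and 3.18 CPM against 2.45, 2.47 and 2.98 CPM in foragers (adjusted p = 0.364), and at 6.4, 4.9 and 5.16 CPM in nurses, above every library of both groups (foragers against nurses, log2 difference -1.06 ± 0.16 SE, adjusted p = 0.00471).

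**Figure D2:**
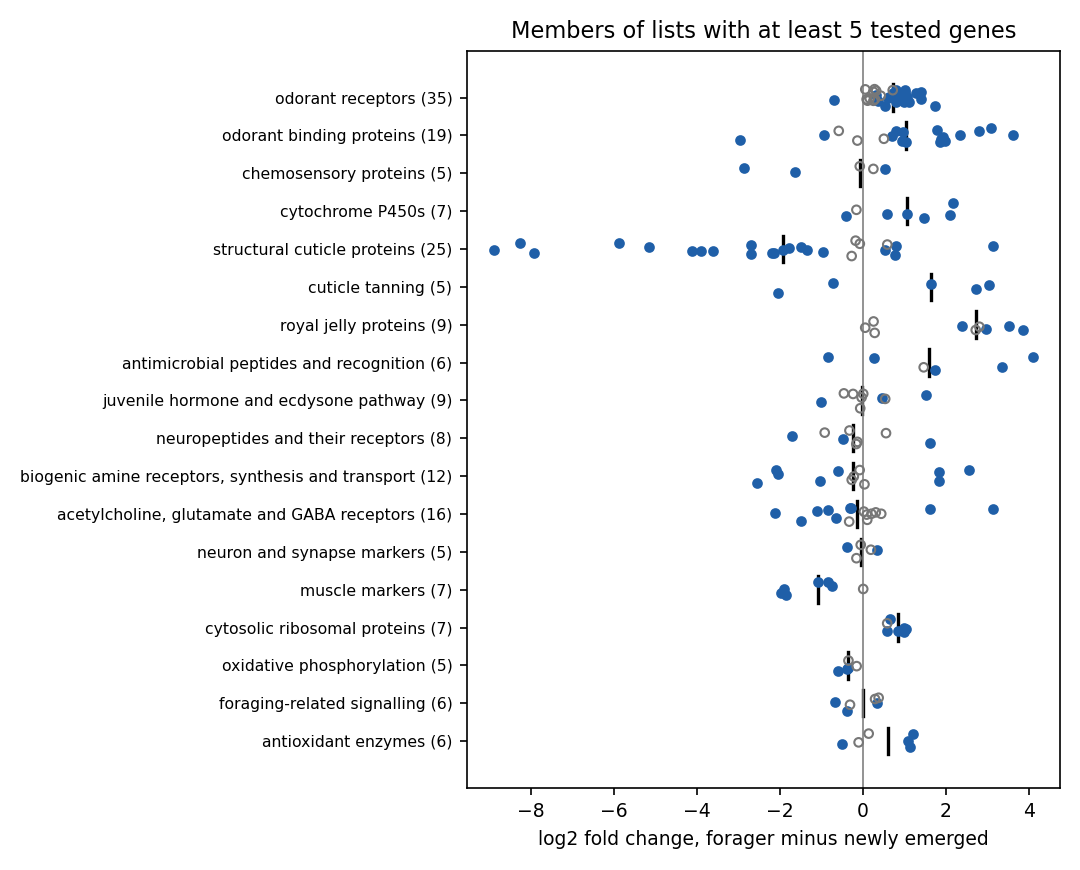
Log2 fold change of each member (points; filled where the adjusted p was under 0.05, open otherwise) of the gene lists with at least 5 tested genes, with the number tested in brackets and the median as a vertical bar. Odorant receptors and ribosomal proteins cluster at small positive values, cuticle proteins reach -8.90, and 6 of 7 muscle markers lie under 0, with TpnCIIIb at 0.00.

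Alpha-glucosidase genes were among the largest rises. The product of Hbg3 is known from the hypopharyngeal gland of foragers, where it converts nectar sucrose. Hbg3, an alpha-glucosidase, was at 17.7, 23.3 and 24.6 CPM in newly emerged workers and 405, 419.7 and 345 CPM in foragers (log2 difference 4.16 ± 0.17 SE, adjusted p = 1.30e-08). AGLU2, another alpha-glucosidase gene, went from 14.1, 16.7 and 15.9 CPM to 94.4, 128 and 113 CPM (log2 difference 2.84 ± 0.14 SE, adjusted p = 5.32e-08). Hbg2 was under 1 CPM in every library of both groups and did not pass (adjusted p = 0.911). The summed level of these 3 genes was 32.4 to 41.3 CPM in newly emerged workers and 458 to 549 CPM in foragers.

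The royal jelly protein family is named for secreted proteins that nurses feed to larvae, a role not shown here for each member. Of 9 genes of the family, 4 were higher in foragers and 0 lower, beside 23.6% and 24.4% of all genes. Mrjp9 was at 75.5, 80.9 and 80.3 CPM in newly emerged workers and 376, 507 and 346 CPM in foragers (log2 difference 2.38 ± 0.16 SE, adjusted p = 4.61e-07), and Mrjp8 at 5.91, 6.4 and 8.68 CPM against 41.3, 66.6 and 54.7 CPM (log2 difference 2.95 ± 0.28 SE, adjusted p = 6.27e-06). Both had non-overlapping groups, like 5202 of the 5403 genes called. Mrjp1, the most abundant protein of royal jelly, was at 1.53, 1.29 and 0.525 CPM in newly emerged workers and 6.08, 0.860 and 41.7 CPM in foragers, so forager library 2 lay among the newly emerged libraries and library 3 far above the others. Its adjusted p was 0.0276, but 0.231 without forager library 3 and 0.0914 in the fit with the replicate block. In 3 of its relatives, Mrjp2, Mrjp5 and Mrjp6, forager library 3 was also the highest, and of these Mrjp6 passed (adjusted p = 0.00711). Leaving out a library gave 3 to 6 members higher. Mrjp3, Mrjp4 and Mrjp7 had log2 fold changes of 0.05, 0.25 and 0.28 and did not pass. The summed level of the family was 97.5 to 101 CPM in newly emerged workers, 440.1 to 586 CPM in foragers and 586 to 2696 CPM in nurses. Mrjp9 alone had means of 78.9, 410 and 276 CPM in these groups. The part of tissue other than antenna in these values was not tested.

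Among genes of storage and blood-borne proteins, Vg and PPO fell. Vg encodes vitellogenin, the yolk precursor and a fat body product that is high in nurses. It was at 40.6, 36.1 and 29.5 CPM in newly emerged workers and 11.8, 11.1 and 9.78 CPM in foragers (log2 difference -1.70 ± 0.46 SE, adjusted p = 0.00943). Hex70a, Hex110 and HEX70b, storage hexamerins, did not pass, with adjusted p from 0.34 to 0.803. PPO, prophenol oxidase of hemocytes, was at 22.2, 24.3 and 21.8 CPM against 9.99, 9.65 and 9.25 CPM in foragers (log2 difference -1.24 ± 0.17 SE, adjusted p = 1.34e-04).

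Of 12 biogenic amine genes tested, 3 rose and 5 fell, where 23.6% and 24.4% of all genes did; the share that rose is near that of all genes, and single genes are described for their size. Serotonin, dopamine, octopamine and tyramine modulate the sensitivity of sensory neurons and circuits in insects. Dat, the dopamine transporter that clears dopamine from synapses, was at 7.96, 11.1 and 7.1 CPM in newly emerged workers and 51.6, 54.6 and 46.8 CPM in foragers (log2 difference 2.55 ± 0.17 SE, adjusted p = 3.77e-07). Dop3, a receptor of the D2 type, went from 5.21, 6.23 and 4.43 CPM to 1.14, 1.7 and 0.831 CPM (log2 difference -2.11 ± 0.31 SE, adjusted p = 1.75e-04). Dop1 and DopR2 had log2 fold changes of -0.08 and -0.22 and did not pass.

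The serotonin receptors were split. 5-HT1 rose from 3.71, 3.95 and 4.12 CPM to 12, 16.9 and 13.1 CPM (log2 difference 1.84 ± 0.17 SE, adjusted p = 5.06e-06). 5-ht7 fell from 8.19, 11.6 and 6.89 CPM to 1.3, 2.05 and 1.18 CPM (log2 difference -2.55 ± 0.38 SE, adjusted p = 2.03e-04), and 5-HT2alpha and 5-HT2beta fell by 0.61 and 1.03 on the log2 scale. TyrR, a tyramine receptor, was at 19.1, 20.0 and 24.2 CPM against 42.5, 80.6 and 102 CPM in foragers (log2 difference 1.83 ± 0.39 SE, adjusted p = 0.00221), with the 3 forager libraries spread over more than the distance to the newly emerged ones. The octopamine receptor gene Oa1 (log2 fold change -0.27, adjusted p = 0.0519) and Tbh, which encodes the enzyme that makes octopamine, did not pass.

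Among 16 receptor genes for acetylcholine, glutamate and GABA, 7 fell and 2 rose, beside 24.4% and 23.6% of all genes. The number that fell was 4 to 6 without a library and 4 under upper-quartile scaling. Glurb, a glutamate receptor gene, was at 91.2, 84.3 and 83.1 CPM in newly emerged workers and 22.5, 21.6 and 14.9 CPM in foragers (log2 difference -2.13 ± 0.22 SE, adjusted p = 1.21e-05). nAChRa9, a nicotinic receptor subunit gene, was at 0.368, 0.562 and 0.589 CPM against 5.58, 4.88 and 2.76 CPM (log2 difference 3.13 ± 0.32 SE, adjusted p = 1.26e-05). nAChRb1 fell by 1.12 and nAChRb2 rose by 1.62 on the log2 scale, both at or under 1 CPM. Cac, a voltage-gated calcium channel gene, fell by 0.41 (adjusted p = 8.24e-04), and the sodium channel gene Para did not pass (-0.20, adjusted p = 0.0987).

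Of 8 neuropeptide and peptide receptor genes, 1 rose and 2 fell, no larger a share than the 47.9% called over all genes. Crzr, the corazonin receptor gene, was at 50.1, 40.4 and 36 CPM in newly emerged workers and 155, 96.1 and 137 CPM in foragers (log2 difference 1.62 ± 0.21 SE, adjusted p = 8.85e-05). Eth, the ecdysis triggering hormone gene that acts at molts, was at 1.07, 0.932 and 0.996 CPM against 0.289, 0.360 and 0.256 CPM (log2 difference -1.72 ± 0.28 SE, adjusted p = 3.68e-04). Tk, the tachykinin gene, fell by 0.48 on the log2 scale and had an adjusted p of 0.0508 under upper-quartile scaling. Dscam and EphR, which guide and sort neuronal processes, both fell: EphR was at 289, 281 and 277 CPM against 138, 114 and 142 CPM (log2 difference -1.11 ± 0.11 SE, adjusted p = 1.30e-05), and Dscam fell by 0.67.

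Markers of general neuronal content gave few stable calls. The summed level of 5 neuron and synapse genes was 1618 to 1712 CPM in newly emerged workers and 1725 to 2017 CPM in foragers. Syt20 (log2 fold change -0.39) and Syx1A (0.33) each lost their calls in at least 4 of the 6 omissions of a library, and Syt20 also under upper-quartile scaling (adjusted p = 0.127). The log2 fold change of brp, an active zone protein gene, was -0.06 (adjusted p = 0.73). Eaat-2, the glial glutamate transporter gene, passed at an adjusted p of 0.0455 and did not pass in 5 omissions or under upper-quartile scaling.

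Muscle transcripts fell in foragers. Of 7 tested troponin genes 6 were lower, also without any library, beside 24.4% of all genes. The summed level of the 7 was 2639 to 3023 CPM in newly emerged workers against 1117 to 1451 CPM in foragers. TpnT was at 983, 820.1 and 932 CPM in newly emerged workers and 337, 164 and 230.4 CPM in foragers (log2 difference -1.90 ± 0.27 SE, adjusted p = 1.28e-04), and TpnCIIa went from 55.3, 43.4 and 51.7 CPM to 14.3, 13.1 and 10.4 CPM (log2 difference -1.99 ± 0.18 SE, adjusted p = 4.27e-06). The antennal base holds muscle; whether its share of the dissected tissue differed between the groups was not tested. Blop, the blue opsin gene, fell from 5.38, 6.58 and 10.3 CPM to 1.1, 1.32 and 1.69 CPM (log2 difference -2.45 ± 0.31 SE, adjusted p = 6.18e-05), while the ultraviolet opsin gene Uvop and the long-wavelength opsin genes Lop1 and Lop2 did not pass. Summed over these 4 opsins the level was 17.9 to 27.4 CPM in newly emerged workers and 13.4 to 19.8 CPM in foragers.

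Genes of defence against microbes were higher in 4 of 6 cases and lower in 1, beside 23.6% and 24.4% of all genes. Apid1 encodes apidaecin, an antimicrobial peptide of hemolymph, and was at 9.59, 19 and 2.35 CPM in newly emerged workers and 109, 118 and 85.6 CPM in foragers (log2 difference 3.35 ± 0.51 SE, adjusted p = 2.45e-04). Def2, a defensin gene, was at 0.0484, 0.133 and 0.118 CPM against 2.03, 1.46 and 1.5 CPM (log2 difference 4.09 ± 0.62 SE, adjusted p = 2.32e-04). Def1 was at 28, 89.7 and 6.4 CPM and 149, 96.3 and 95.8 CPM and did not pass (adjusted p = 0.12), with a wide spread in newly emerged workers. Among the peptidoglycan recognition genes, PGRP-S3 rose by 1.73 and Pgrp-s2 fell by 0.85 on the log2 scale.

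The products of cytochrome P450 genes oxidize odorants, toxins and lipids. Of 7 such genes matched by symbol or synonym, 5 were higher and 1 lower, beside 23.6% and 24.4% of all genes. CYP6AQ1 was at 5003, 5629.5 and 4606 CPM in newly emerged workers and 12258, 16505 and 13194 CPM in foragers (log2 difference 1.46 ± 0.13 SE, adjusted p = 3.94e-06). Cyp4g11, of the subfamily that makes cuticular hydrocarbons in insects, went from 54.7, 26.1 and 36.5 CPM to 146, 182 and 174 CPM (log2 difference 2.10 ± 0.36 SE, adjusted p = 6.20e-04). Cyp314a1, whose product activates ecdysone, fell by 0.42 on the log2 scale, with an adjusted p of 0.0684 under upper-quartile scaling. Of the glutathione S-transferase genes, GstS1 rose from 253, 96.7 and 68.9 CPM to 676, 504 and 358 CPM (log2 difference 1.88 ± 0.42 SE, adjusted p = 0.00313), and GstS4 fell from 7.08, 6.45 and 8.15 CPM to 0.528, 1.46 and 0.882 CPM (log2 difference -2.91 ± 0.29 SE, adjusted p = 1.03e-05).

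Of 6 antioxidant genes 3 rose and 1 fell, beside 23.6% and 24.4% of all genes. Cat encodes catalase, which removes hydrogen peroxide, and was at 376, 375 and 408 CPM in newly emerged workers and 834, 824 and 793 CPM in foragers (log2 difference 1.08 ± 0.09 SE, adjusted p = 2.68e-06). Gtpx1, a glutathione peroxidase gene, went from 306, 295 and 343 CPM to 718, 738 and 725 CPM (log2 difference 1.21 ± 0.10 SE, adjusted p = 2.92e-06), and MsrA, which repairs oxidized methionine, rose by 1.13 on the log2 scale. Sod2, the mitochondrial superoxide dismutase gene, fell by 0.51 (adjusted p = 7.39e-04), and Sod1 did not pass.

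Of 7 tested ribosomal protein genes matched by symbol or synonym, 6 rose in small steps, beside 23.6% of all genes. The list's median log2 fold change was 0.83. RpL32, often used as a reference transcript, was at 59.3, 53.2 and 63.2 CPM in newly emerged workers and 122, 133 and 105 CPM in foragers (log2 difference 1.03 ± 0.11 SE, adjusted p = 1.58e-05), and Rps14 at 59.8, 55.8 and 75.7 CPM against 118, 153 and 109 CPM (log2 difference 0.99 ± 0.13 SE, adjusted p = 1.08e-04). Of 5 oxidative phosphorylation genes matched by symbol or synonym, 3 were lower, beside 24.4% of all genes. They fell by 0.37 to 0.61 on the log2 scale, and 1 to 3 were lower without a library. Cox6b1 and Uqcr11 each lost the call in 3 of the 6 omissions and under upper-quartile scaling, with adjusted p of 0.145 and 0.0741 there. Heat shock and chaperone genes gave 0 calls among 4 by edgeR, beside 47.9% of all genes, with 1 of them at an unadjusted p under 0.05. Without forager library 2, 1 of the 4 was higher and 1 lower, and 1 was higher under upper-quartile scaling. Hsc70-3, at a log2 fold change of -0.19, passed in DESeq2 (adjusted p = 0.0308).

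Of 9 genes of the juvenile hormone and ecdysone pathways, 2 rose and 1 fell, against 23.6% and 24.4% of all genes, so the count is no result about these pathways. Kr-h1, the early response gene of juvenile hormone, was at 11.3, 17.8 and 14.6 CPM in newly emerged workers and 53.7, 35.7 and 35.7 CPM in foragers (log2 difference 1.52 ± 0.31 SE, adjusted p = 0.00173). E74, an ecdysone-induced transcription factor gene, went from 160.2, 151 and 161 CPM to 83.6, 72 and 77.9 CPM (log2 difference -1.02 ± 0.13 SE, adjusted p = 5.22e-05). Usp, the partner of the ecdysone receptor, rose by 0.46, and Ecr itself was at -0.07 (adjusted p = 0.575). InR-2, an insulin receptor gene, rose by 0.84 on the log2 scale.

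The gene For, whose cGMP-dependent protein kinase has been tied to the onset of foraging through the bee brain, was at 178, 169 and 177 CPM in newly emerged antennae and 112, 103 and 113 CPM in forager antennae (log2 difference -0.67 ± 0.16 SE, adjusted p = 0.0045). Per, the clock gene period, was at 84.3, 81.9 and 76.4 CPM and 75, 61.2 and 85.4 CPM and did not pass (adjusted p = 0.562). Cry2, its partner in the clock, did not pass either (log2 fold change -0.55, adjusted p = 0.155). Kakusei, a noncoding early gene of active bee brains, was near 1 CPM in both groups (adjusted p = 0.494).

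The smaller lists held further calls. Vha16, a proton pump subunit gene, fell by 0.88, and Mad, a transcription factor gene of BMP signalling, by 0.55 on the log2 scale. Of 4 splicing factor genes, Snf rose by 0.41 and tra2 by 0.25, and Fem fell by 0.38, beside 23.6% higher and 24.4% lower over all genes. Both tra2 and Fem did not pass without newly emerged library 2, and Fem did not pass under upper-quartile scaling (adjusted p = 0.0776). Cdk5, a kinase gene with a role in neurons, rose by 0.55. Melt, the gene of the venom peptide melittin, was at 0.0678, 0.0592 and 0.0428 CPM against 0.189, 0.440 and 0.192 CPM in foragers (log2 difference 2.26 ± 0.48 SE, adjusted p = 0.00221).

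Genes without a symbol included the largest changes of all. LOC552685 was at 269, 407 and 599 CPM in newly emerged workers and 0.0698, 0.150 and 0.141 CPM in foragers (log2 difference -11.79 ± 0.70 SE, adjusted p = 1.47e-07), and LOC107965367 at 1618, 1519 and 2439 CPM against 0.399, 0.680 and 1.01 CPM (log2 difference -11.41 ± 0.48 SE, adjusted p = 1.39e-08). In the other direction LOC412768 was at 32.4, 23.1 and 26.2 CPM against 949, 2604 and 2287 CPM (log2 difference 6.16 ± 0.47 SE, adjusted p = 1.09e-06). LOC102656690, a long noncoding RNA gene, was at 0.136, 0.104 and 0.0428 CPM against 6.12, 7.93 and 5.5 CPM (log2 difference 6.09 ± 0.32 SE, adjusted p = 7.09e-08). The files give these identifiers no function. Grp, a protein-coding gene with a symbol, fell from 41.4, 26.2 and 27.6 CPM to 0.688, 0.870 and 0.512 CPM (log2 difference -5.51 ± 0.23 SE, adjusted p = 1.39e-08).

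Nurse and defender libraries show where the forager values lie among adult workers. In the same model 4460 genes (39.6%) set nurses apart from newly emerged workers, and 3880 (34.4%) set defenders apart. These comparisons share the newly emerged libraries, so their overlap is not given. Whether foragers differed from nurses is tested by the direct difference between them. In it 452 genes passed (4.01%), 215 higher (1.91%) and 237 lower (2.1%) in foragers. The count does not say which of the groups lay farther from newly emerged workers. Without forager library 1 this count was 259, without forager library 2 it was 288, and DESeq2 gave 888. Of 113 genes named here by rule, 31 differed between foragers and nurses, and 16 of these did so without each forager library in turn. The rule used the forager libraries, so nothing is read from that share.

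Cuticle genes included some that were already low in nurses and lower still in foragers. Of 25 tested, 7 were lower and 1 higher in foragers than in nurses, beside 2.1% and 1.91% of all genes. CPR6 was at 1.37, 1.64 and 3.09 CPM in nurses (foragers against nurses, log2 difference -2.18 ± 0.37 SE, adjusted p = 0.00801) and CPR19 at 9.05, 12.6 and 4.89 CPM (log2 difference -2.96 ± 0.40 SE, adjusted p = 0.00214). Apd-2 was at 359, 253 and 391 CPM in nurses (log2 difference -2.35 ± 0.29 SE, adjusted p = 0.00112). Apd-1 had another pattern: nurses were at 31.7, 58.1 and 26.8 CPM, overlapping the newly emerged libraries (nurses against newly emerged, log2 fold change -0.05, adjusted p = 0.939), and foragers were far lower (log2 difference -8.85 ± 0.67 SE, adjusted p = 6.64e-05). CSP2 was at 28.6, 32 and 31.2 CPM in nurses, between the other groups (log2 difference -1.47 ± 0.16 SE, adjusted p = 6.91e-04).

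Among the genes that rose, Hbg3 was at 130.3, 106 and 97.7 CPM in nurses and 224, 224 and 174 CPM in defenders, both above newly emerged workers and below foragers (foragers against nurses, log2 difference 1.81 ± 0.16 SE, adjusted p = 1.28e-04). Dat was at 25, 24.9 and 30.0 CPM in nurses (log2 difference 0.94 ± 0.16 SE, adjusted p = 0.00855) and Obp16 at 1724, 1348 and 1947 CPM (log2 difference 0.76 ± 0.13 SE, adjusted p = 0.00881). TyHyd was at 347, 278 and 267 CPM in nurses, below every forager library (log2 difference 1.41 ± 0.28 SE, adjusted p = 0.0172), a call that had an adjusted p of 0.0593 without forager library 1. By group means Vg and PPO were highest in nurses. Vg was at 25.6, 141 and 65.6 CPM there, with nurse library 1 below every newly emerged library (nurses against newly emerged, adjusted p = 0.0634), and was lower in foragers than in nurses (log2 difference -2.82 ± 0.48 SE, adjusted p = 0.00769). PPO was at 48.8, 35.3 and 26.4 CPM in nurses (log2 difference -1.93 ± 0.18 SE, adjusted p = 1.99e-04).

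Mrjp1 was at 1236, 238 and 132 CPM in nurses, above every forager library (log2 difference -5.05 ± 1.26 SE, adjusted p = 0.0483), with adjusted p of 0.154 and 0.0845 without forager library 1 and 2. Cat, Gtpx1 and MsrA were higher in foragers than in nurses by 0.36, 0.42 and 0.47 on the log2 scale, with adjusted p of 0.0425 to 0.0482 that exceeded 0.05 on each omission of a forager library. Obp19 and the other C-minus carriers apart from Obp16 did not differ between foragers and nurses at the threshold; Obp19 was at 186, 98.3 and 185 CPM in nurses (log2 fold change 0.87, adjusted p = 0.0645). The same holds for Or11, at 43.4, 46.2 and 45.6 CPM in nurses (adjusted p = 0.789).

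**Figure D3:**
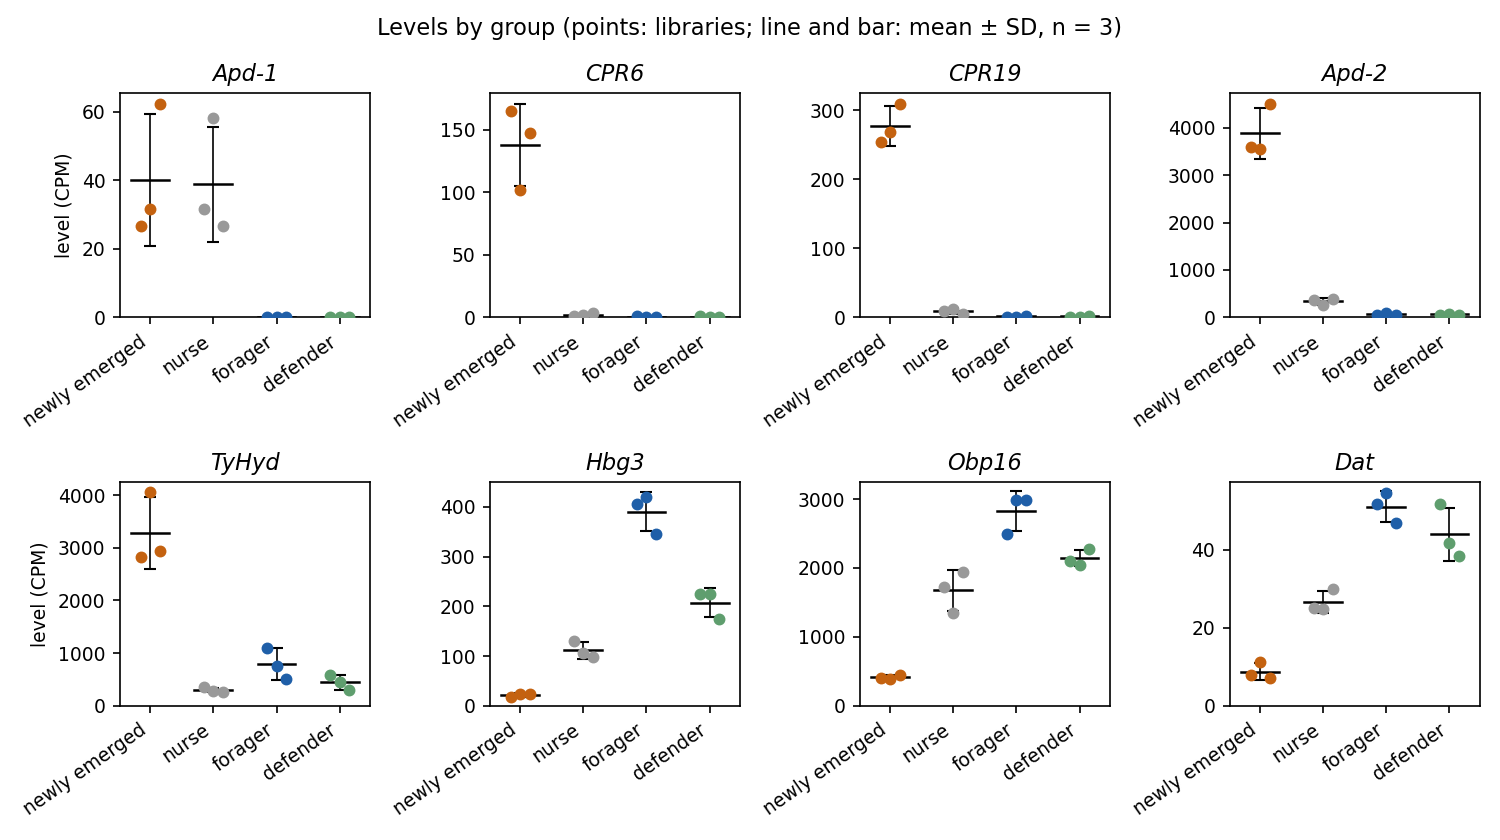
Level (CPM, linear axes from 0) of 8 genes in each library of the 4 groups; points are libraries, the line and bar are the mean and SD of 3 libraries. Apd-1 overlaps between newly emerged workers and nurses and is near 0 in foragers and defenders, CPR6, CPR19 and Apd-2 are high in newly emerged workers, and Hbg3 is highest in foragers.

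Defenders and foragers gave 0 calls by edgeR (0.0% of genes), while 2705 genes had an unadjusted p under 0.05, DESeq2 called 1306, and the fit with the replicate block called 667. Hbg3 was at 390.0 ± 39.5 CPM (SD, n = 3) in foragers and 208 ± 28.7 CPM in defenders, at a log2 difference of -0.91 for defenders minus foragers (adjusted p = 0.0544). The libraries of the groups did not overlap for this gene.

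The share of genes called higher in foragers was larger among long noncoding than among protein-coding genes; this difference was not tested. By the gene types of the NCBI list, 1540 of the tested genes were long noncoding and 9611 protein-coding. Among the former 631 were higher and 136 lower in foragers, with a median log2 fold change of 0.53. Among the latter 1995 were higher and 2602 lower, with a median of -0.03. At least 2-fold calls were 31.4% of the long noncoding and 13.5% of the protein-coding genes.

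Long noncoding genes had lower CPM (median 1.22 against 28.7), so the shares were compared within ranges of CPM. CPM is not corrected for gene length, and levels were not matched within a range. Between 1 and 10 CPM, 48.5% of 649 long noncoding genes rose against 25.5% of 1825 protein-coding genes. At 10 CPM or more the shares were 45.9% of 196 and 19.3% of 7050, and under 1 CPM 226 of 695 and 169 of 736 rose. Without forager library 2, which stood apart from the other foragers, 531 long noncoding genes were higher and 138 lower, with a median of 0.41. Upper-quartile scaling gave 748 higher and 103 lower among the long noncoding genes, with a median of 0.68. It turned the protein-coding genes from more lower to more higher calls, at 2924 higher and 1873 lower with a median of 0.11, while the long noncoding median stayed above theirs. The sources used here do not say whether reads were counted by strand, so transcripts that overlap another gene on the opposite strand cannot be told apart from it.

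**Figure D4:**
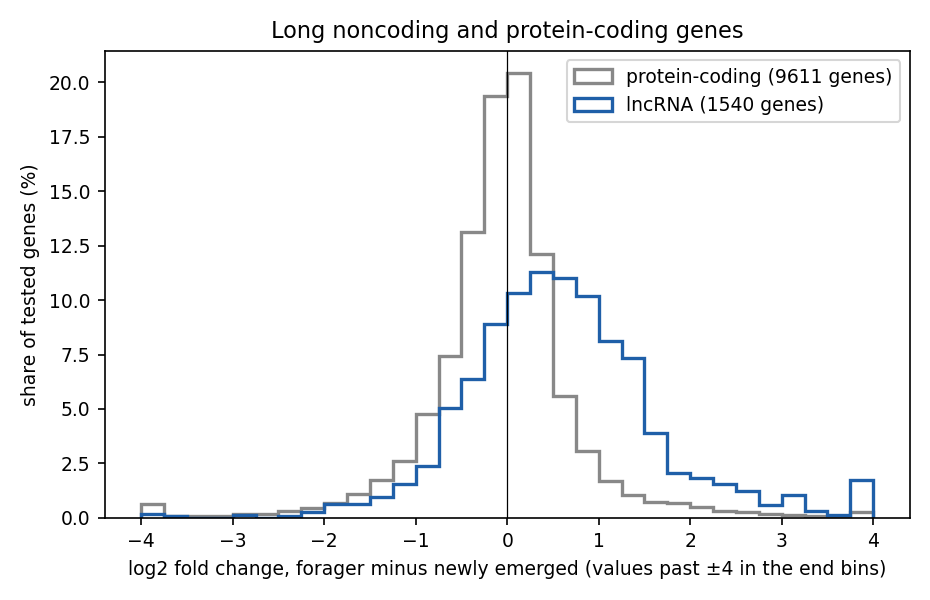
Share of tested genes (%) by log2 fold change, forager minus newly emerged, for 1540 long noncoding and 9611 protein-coding genes; values past 4 in either direction are in the end bins. The long noncoding genes lie farther to the right, with a median of 0.53 against -0.03.

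Splice events were compared in the same libraries. The authors deposited the inclusion level of 491 splice events, the fraction of transcripts from 0 to 1 that carries an exon, an intron or 1 of a pair of sites, without read counts, so the depth behind each value is unknown. The sources used here do not say how these events were selected, so the shares below describe the deposited events only. With 3 libraries against 3 the smallest exact two-sided permutation p is 0.1, so no event can pass 0.05 in that test, no model-based test of inclusion was run, and events are described by a difference of at least 0.1 between means with libraries that do not overlap. By that rule 354 of 491 events differed (72.1%), 182 with higher and 172 with lower inclusion in foragers.

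Skipped exons made up 288 events, of which 107 were higher and 107 lower (74.3%). Retained introns went mostly down: 16 of 26 were lower and 4 higher (76.9%). Mutually exclusive exons (64 of 90, 71.1%), alternative 3' sites (26 of 43, 60.5%) and alternative 5' sites (30 of 44, 68.2%) made up the rest. The 354 events lie in 250 genes, of which 153 also differed in total count, where 47.9% of all genes tested did. All deposited events lie in 332 genes, selected in a way that is not stated, so these shares are not of like genes. A link between inclusion and level was not tested.

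Troponin genes were among those with events that met the rule. A 31-base exon of TpnT had inclusion 0.329, 0.373 and 0.353 in newly emerged workers and 0.882, 0.943 and 0.925 in foragers, with nurses between them at 0.66, 0.738 and 0.733. A 101-base exon of TpnI, troponin I, went from 0.813, 0.828 and 0.809 to 0.419, 0.539 and 0.42. Groups of both genes were far apart compared with the spread of their libraries. TpnCIIb, a troponin C gene, had an alternative 3' site at 0.061, 0.073 and 0.115 in newly emerged workers and 0.542, 0.199 and 0.703 in foragers, where the libraries were spread widely.

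In sensory and neural genes, Or58, an odorant receptor gene, had an exon of 100 bases at 0.364, 0.308 and 0.308 inclusion in newly emerged workers and 0.792, 0.667 and 0.775 in foragers. An exon of Or170, another receptor gene, went from 0.677, 0.429 and 0.429 to 0.708, 0.952 and 0.931, and the total count of Or170 did not differ (adjusted p = 0.819). The serotonin receptor gene 5-HT1, which rose in level, had a mutually exclusive exon at 0.133, 0.375 and 0.455 against 0.778, 0.667 and 0.731 in foragers. Syx1A, which encodes syntaxin of the vesicle release machinery, had an alternative 3' site at 0.412, 0.365 and 0.435 against 0.723, 0.735 and 0.698, while nurses, at 0.719, 0.705 and 0.666, were close to foragers.

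The clock gene Per, whose total count did not pass, had events of this kind. Of its 3 skipped-exon events, the one of 113 bases was at 0.704, 0.938 and 0.735 in newly emerged workers and 0.488, 0.464 and 0.415 in foragers, and those of 128 and 131 bases were lower by 0.249 and 0.288. Nurses, at 0.446, 0.514 and 0.496 for the first, lay with the foragers. GluCl, the glutamate-gated chloride channel gene, had a 68-base exon at 0.302, 0.312 and 0.304 against 0.55, 0.62 and 0.544, and its total count did not pass (adjusted p = 0.0687). Dnmt1a, a DNA methyltransferase gene, had a retained intron at 0.869, 0.927 and 0.875 in newly emerged workers and 0.607, 0.61 and 0.81 in foragers.

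The largest differences among skipped exons were in genes without a symbol. LOC113218812 had a 216-base exon at 0.077, 0.059 and 0.086 in newly emerged workers and 0.683, 0.766 and 0.799 in foragers, with nurses at 0.447, 0.568 and 0.572. LOC409843 had an exon of 121 bases at 0.27, 0.349 and 0.313 against 0.949, 0.956 and 0.986. By the same rule 81 of the 354 events also separated foragers from nurses, and 36 separated them from defenders. Over all 491 events these counts were 116 and 56, a similar share.

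**Figure D5:**
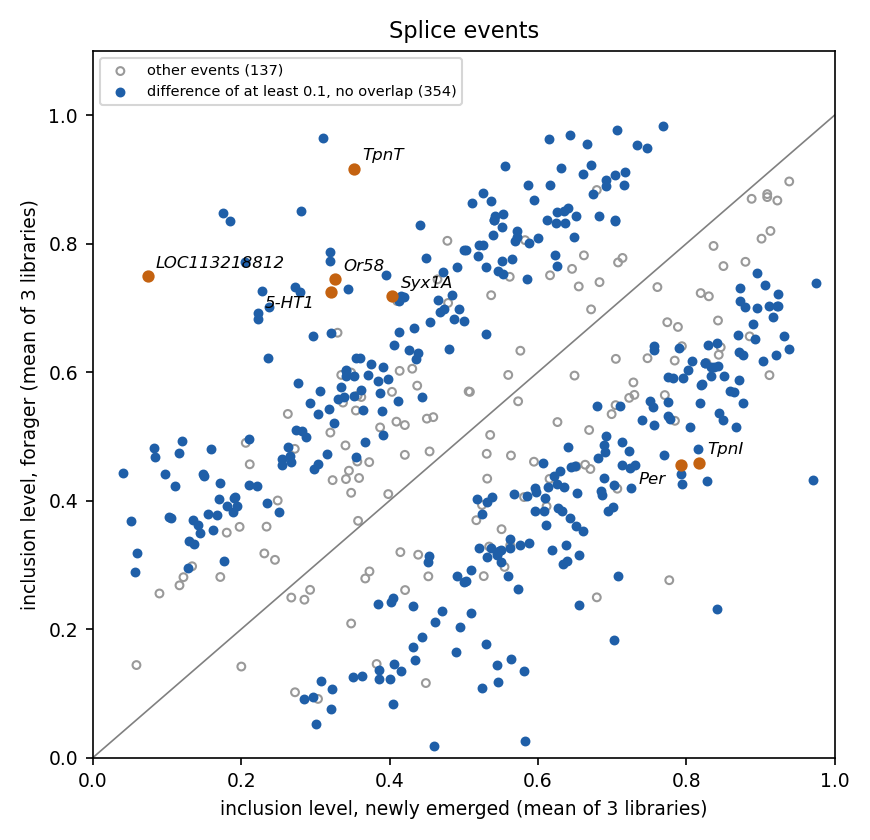
Mean inclusion level (fraction, 3 libraries each) of 491 splice events in newly emerged (x) and forager (y) antennae; filled points are the 354 events with a difference of at least 0.1 and no overlap, orange points the labelled events, and the line marks equal inclusion. TpnT and LOC113218812 lie far above the line, Per and TpnI below it.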

How the data were processed

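Antennal RNA of 12 worker libraries was read on a DNBSEQ instrument (per the labels). The authors deposited whole-number counts per gene, not normalized, and 5 tables of splice events whose inclusion level is a fraction. The sources used here do not give the aligner, counter, build, strand or splice caller. The labels' culture and extraction fields describe a chromatin assay on human cells and were not used. Groups come from the sample titles. The NCBI gene list for the assembly Amel_HAv3.1 holds 12167 of the 12319 names as symbols and was used for names, synonyms, gene types and gene order only.

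Counts were filtered with filterByExpr (11271 genes kept, 208 without any count), TMM-scaled and fitted with edgeR 4.0.16 (glmQLFit, robust, two-sided glmQLFTest) in R 4.3.3, with 4 group means over 12 libraries and 8 residual degrees of freedom. SE is the absolute log2 fold change over the square root of F. Calls are Benjamini-Hochberg adjusted p under 0.05. The scripts were tested on simulated data. Alternatives were the 6 libraries alone, upper-quartile and RLE factors, DESeq2 1.42.0, 2 filters, a replicate block and the omission of each library. In the check of pairing, deviations of same-numbered forager and newly emerged libraries correlated at 0.306, 0.257 and 0.288. Those of unlike-numbered libraries correlated at -0.203 to -0.0982. Deviations from a group's own mean cancel within the group, so these negative values follow on average from the positive ones and are no separate evidence. The number is the one after the group name, and the number after Rep in the titles differs from it in some libraries. The labels do not state a shared source. All calls and SE are therefore from the fit without pairs unless the replicate block, which pairs same-numbered libraries, is named.

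Of 51 gene lists, matched by symbol or synonym, 42 had a tested member and held 242 genes, of which 86 rose and 69 fell. The lists and the genes followed were chosen with earlier results of these data known. Wrong synonym matches (Pkc, CSP3, Tk, LOC411611 and Jhe) were taken out of the lists they did not belong to after values had been seen. Named genes were the 12 largest changes per direction with a symbol, at least 5 CPM and no overlap, up to 3 per list and direction, and a set named whatever its result (Or2, Or11, Vg, Kr-h1, Per, Mrjp1, For, TyHyd); further list members are given by value. The part of the rule that needed gene descriptions could not be applied, and the 4 genes without a symbol were the largest changes. Versions of other tools were Python 3.11, pandas and matplotlib.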

Additional observations from a re-analysis of the deposited data

How the results depend on the processing

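With a fold of at least 2 required beside the adjusted p, 967 genes were higher and 838 lower. Leaving out each library gave 2176 to 2609 higher and 2111 to 2697 lower, and 78 to 86 list members higher and 59 to 67 lower. The fit with the replicate block, in which same-numbered libraries were paired, gave 2686 higher and 2860 lower and changed the call of 3 of 113 named genes, Mrjp1 (adjusted p = 0.0914), Dnmt1a (0.0537) and Fabp (0.0551), and of no other. Of 107 named genes called, 90 stayed called whichever of the 6 libraries was left out. Upper-quartile factors ended 12 named calls, the 6 libraries alone 5, the filter of 1 CPM 2, DESeq2 1 and no filter 1. The direction turned for genes without a call: Per had a log2 fold change of 0.0144 under upper-quartile factors, Kakusei ran from -0.0738 (without forager library 2) to 0.5505 (without forager library 3) and Rpn1 from -0.0715 (without forager library 3) to 0.0942 (without forager library 2). The cause was not tested. Named genes called between foragers and nurses numbered 31, and 19 to 28 without a forager library (19 without library 1). Splice events past the rule numbered 357 at a threshold of 0.05, 270.0 at 0.2, 351 with medians and 370 to 387 without a library, since fewer libraries have to be apart. With 3 libraries a group, changes near the threshold are not settled at this depth of replication.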
